A study of Mus musculus with 3 samples.

Results

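The leukaemia inhibitory factor (LIF) receptor and Stat3 pathway was followed in mouse embryonic stem (ES) cells with and without Pcgf1, through 9 genes chosen by name: Lifr, Il6st, Jak1, Stat3, Socs3, Ptpn11, Pim1, Pim3 and Junb. Of the 9 genes, 8 were listed by name in all 3 libraries and 7 had a value above 0 in each, among 25350 genes that carried a name of their own in all 3 libraries. Socs3 was listed at 0 throughout and Junb was not listed. None of the 7 measured genes differed by more than 2-fold between any pair of libraries. Pim1 came closest, at 62.8 FPKM in the Pcgf1-/- cells and 34.2 FPKM in the same cells with FLAG-Pcgf1 added back.

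LIF is the cytokine that keeps mouse ES cells self-renewing in culture. It binds a receptor made of Lifr and Il6st (gp130), whose bound kinase Jak1 phosphorylates the transcription factor Stat3. Phosphorylated Stat3 enters the nucleus and switches on targets that include its own feedback inhibitor Socs3, the survival kinases Pim1 and Pim3 and the transcription factor Junb. The phosphatase Ptpn11 (SHP2) leads from the same receptor to the ERK branch. Stat3 is controlled largely by phosphorylation, which messenger RNA levels do not report.

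Polyadenylated RNA was sequenced from wild-type mouse ES cells (WT, genotype label wild type), from ES cells in which Pcgf1 was knocked out (Pcgf1-/-, genotype label Pcgf1KO), and from the knockout cells carrying FLAG-tagged Pcgf1 (genotype label Pcgf1KO+ Pcgf1_flag, called rescue here). All 3 are of strain C57BL/6, and all were cultured with LIF and serum on mitomycin-inactivated mouse embryonic fibroblasts, so the pathway was under continuous ligand in every group. The knockout was made with a pair of Cas9 guides against the second and the third exon of Pcgf1 in a line grown from a colony, and the rescue is that line after lentiviral infection and puromycin selection. Each group was 1 library, so there is no replicate spread, no test was possible, and a difference between libraries cannot be told apart from a difference between cultures or clones. Values are FPKM, the fragments per kilobase of transcript scaled to the size of the library, which can be compared between genes of different length. The depth behind them is unknown.

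At the targeted gene the WT and Pcgf1-/- libraries matched their labels. Pcgf1 was listed at 14.0 FPKM in WT, 5.88 in Pcgf1-/- cells and 7.86 in rescue cells, and in the Pcgf1-/- library alone an event was listed that skips its exons 2 and 3 (chr6:83078895-83079268, mm10), with the skipping form at 5.88 FPKM and the including form at 0. Rescue cells derive from the knockout line, but their library had no row for this skipping event. Their whole Pcgf1 value, 7.86 FPKM, was listed at the first exon that carried the WT value (chr6:83078346-83078478) and again at the last exon. Whether the rescue's value came from the virus or from the gene itself was not tested. The ES cell marker Pou5f1 was at 518 to 670 FPKM in the 3 libraries, and all 10 ES cell markers measured were above 0. Nanog, at 68.2 FPKM in WT, 46.3 in Pcgf1-/- and 123 in rescue cells, was the only one of the 10 past 2-fold in a comparison, with a log2 ratio of rescue to Pcgf1-/- of 1.41. Of the 12 markers chosen, Sox2 and Dppa5a lacked a name of their own in some library. The joined locus that holds Sox2 was at 0.21 FPKM in WT and 30.2 in Pcgf1-/- cells, and Sox2 alone was at 29.3 in rescue cells. The reason for the low WT value was not tested. Dppa5a was at 1293 FPKM in WT, and joined with Ooep at 2048 in Pcgf1-/- and 1845 in rescue cells. Of 19 feeder fibroblast markers measured, Postn and Fap were at 0 in every library, and the summed level was 413 FPKM in WT, 408 in Pcgf1-/- and 395 in rescue cells, most of it Sparc and Fn1. Of the 15 above 0 in both libraries, 5 were more than 2-fold lower in Pcgf1-/- than in WT cells, 0 higher and 10 within 2-fold. Of all 11952 genes above 0 in both, 7.26% were more than 2-fold lower. The 5 were Col1a1, Col1a2, Col6a1, Thy1 and Pdgfrb, of which only Thy1 was above 1.88 FPKM in WT. Col1a1 was at 1.88 FPKM in WT, 0.39 in Pcgf1-/- and 2.21 in rescue cells. Within 2-fold, Dcn (log2 ratio 0.96), Twist1 (0.59), Loxl1 (0.33) and Sparc (0.23) were among those higher in Pcgf1-/- cells. The part of feeder RNA in the pathway values below was not tested. In a bulk library, fewer cells of a type and less RNA per cell cannot be told apart.

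Sequences are shown for 3 of the genes, those whose transcript form or promoter bears on the values. In Ptpn11 the files separate a pair of acceptor ends of exon 11 (chr5:121144530-121144696, mm10, minus strand), coding exon ends 12 bases apart. The capitals mark the 12 bases found only in the longer form, with 24 bases of transcript on each side, from the GENCODE vM21 transcripts Ptpn11-201 and Ptpn11-202.
Ptpn11 longer form: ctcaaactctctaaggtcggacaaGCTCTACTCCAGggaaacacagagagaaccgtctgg
Ptpn11 shorter form: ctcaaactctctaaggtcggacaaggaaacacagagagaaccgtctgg

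In Stat3 the corresponding choice lies at exon 23 (chr11:100889478-100889590, mm10, minus strand). The longer form keeps 50 bases, in capitals, that the shorter form leaves out. The shorter form is Stat3 beta, which lacks the end of the transactivation domain. The sequences are those of Stat3-201 and Stat3-202.
Stat3 longer form: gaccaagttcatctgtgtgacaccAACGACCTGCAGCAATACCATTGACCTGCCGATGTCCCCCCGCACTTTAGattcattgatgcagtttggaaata
Stat3 shorter form: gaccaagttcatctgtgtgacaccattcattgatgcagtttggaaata

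Stat proteins bind the palindrome TTCNNNGAA, which reads the same on both strands. It was searched in the RefSeq promoter windows (GRCm38.p6, 250 bases before to 50 after the start site), in which all 9 genes were matched by symbol with 11 windows between them. The window of Socs3 was the only one of the 11 to hold it, against 8.30% of all 32851 windows, with 1 match starting 154 bases before the start site. The stretch around it (chr11:117969452-117969580, minus strand) is shown because Socs3 is the textbook Stat3 target, with the match in capitals. A match is a description of the letters and not of binding.
Socs3 promoter: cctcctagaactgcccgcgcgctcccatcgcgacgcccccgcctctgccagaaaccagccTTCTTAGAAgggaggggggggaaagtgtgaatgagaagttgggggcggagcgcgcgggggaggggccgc

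Lifr and Il6st, the receptor chains, differed little between the 3 libraries by the larger of their summed first-exon and last-exon values. Lifr (ENSMUSG00000054263, chr15:7090614-7197489, plus strand) was at 7.20 FPKM in WT, 8.52 in Pcgf1-/- and 6.77 in rescue cells. It was the lowest of the 7 measured genes in each library. The Lifr value came from first exons alone in WT and from the last exon alone in Pcgf1-/- cells, so its ratio compares different ends of the gene. Il6st (ENSMUSG00000021756, chr13:112464070-112510086, plus strand), the signalling chain shared by the whole cytokine family, was at 10.1 FPKM in WT, 8.77 in Pcgf1-/- and 10.1 in rescue cells. Lifr was higher and Il6st lower in the knockout, with log2 ratios of Pcgf1-/- to WT of 0.24 for Lifr and -0.20 for Il6st, taken on FPKM + 0.1. The Il6st value comes from its only listed last exon, 55 bases at chr13:112503705-112503759. That exon ends before the annotated end of the gene and is the exon of the short transcripts Il6st-202 and Il6st-204. Read from first exons alone, Il6st was at 3.0, 3.02 and 3.62 FPKM in WT, Pcgf1-/- and rescue cells, which puts its log2 ratio of Pcgf1-/- to WT at 0.01.

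Jak1, the kinase that phosphorylates Stat3 at this receptor, was highest in the knockout. It was at 9.54 FPKM in WT, 12.8 in Pcgf1-/- and 8.30 in rescue cells (ENSMUSG00000028530, chr4:101152367-101265282, minus strand). On the log2 scale it was 0.42 higher in Pcgf1-/- than in WT cells, the largest such difference of the 7 genes, and in rescue cells its log2 ratio to the knockout was -0.62. Among the 5875 genes at 5 FPKM or more in all 3 libraries, 92.6% had a lower log2 ratio of Pcgf1-/- to WT than Jak1. Raver2, which overlaps Jak1 on the other strand, was at 3.69 to 4.42 FPKM, and its part in the Jak1 value was not tested.

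Stat3, the transcription factor of the pathway, was among the more even genes. It was at 24.7 FPKM in WT, 21.8 in Pcgf1-/- and 21.0 in rescue cells (ENSMUSG00000004040, chr11:100885098-100939540, minus strand). Its highest value was 1.18 times its lowest, and the log2 ratios were -0.18 for the knockout over WT and -0.06 for rescue over the knockout. The WT library alone listed part of this value, 5.89 FPKM, at an internal first exon (chr11:100899216-100899307), and the remaining 18.8 FPKM at the first exon of the gene (chr11:100939256-100939404), which carried the whole value in Pcgf1-/- and rescue cells.

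Ptpn11, the phosphatase, was at 20.1 FPKM in WT, 23.0 in Pcgf1-/- and 18.5 in rescue cells (ENSMUSG00000043733, chr5:121130533-121191397, minus strand). The knockout library was again the highest, with a log2 ratio to WT of 0.20 and of rescue to knockout of -0.32.

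The kinases Pim1 and Pim3, which promote survival and are known Stat3 targets, were the most abundant of the 7 genes. Pim1 (ENSMUSG00000024014, chr17:29490753-29496112, plus strand) was at 50.5 FPKM in WT, 62.8 in Pcgf1-/- and 34.2 in rescue cells. Its log2 ratio was 0.32 for Pcgf1-/- to WT, -0.88 for rescue to Pcgf1-/- and -0.56 for rescue to WT. The rescue library was thus the low one, below WT as well as below the knockout. Pim3 (ENSMUSG00000035828, chr15:88862186-88865726, plus strand) was at 132 FPKM in WT, 126 in Pcgf1-/- and 96.8 in rescue cells. The rescue library was low here too, with log2 ratios of -0.38 to Pcgf1-/- and -0.45 to WT, whereas Pcgf1-/- and WT differed by -0.06. Gm26885, which overlaps Pim1 on the other strand, was listed at 0 in all 3 libraries.

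**Figure D1:**
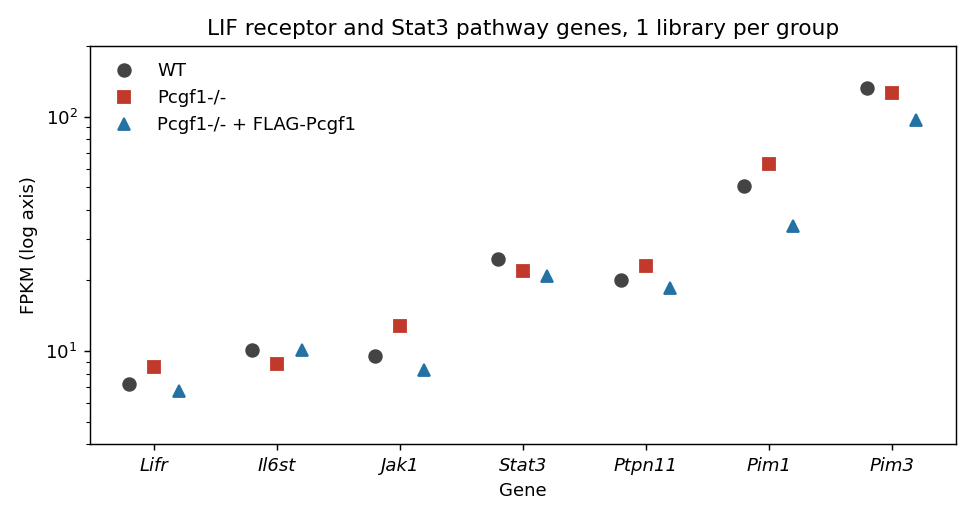
FPKM (log axis) of the 7 measured genes, 1 point per library, with circles for WT, squares for Pcgf1-/- and triangles for Pcgf1-/- with FLAG-Pcgf1. Lifr lies lowest at 6.77 to 8.52 FPKM and Pim3 highest at 96.8 to 132 FPKM, and the 3 points of each gene lie within 1.84 times of each other.

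The order of levels was Pim3, Pim1, Stat3, Ptpn11, Il6st, Jak1 and Lifr in WT and in rescue cells. In Pcgf1-/- cells Ptpn11 stood above Stat3 and Jak1 above Il6st. With 1 library per group the neighbours in this order cannot be separated beyond their spread. Pim3 exceeded 96.7% of the genes above 0 in WT, 96.4% in Pcgf1-/- and 95.7% in rescue cells, and Lifr exceeded 56.5%, 59.96% and 58.0%.

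Socs3 (ENSMUSG00000053113, chr11:117966079-117970047, minus strand), the feedback inhibitor whose promoter is shown above, was listed at 0 at both of its first exons and at its last exon in all 3 libraries. A listed 0 was common in these files, where 11290 of the 25350 genes, 44.5%, were at 0 in all 3 libraries, and with unknown depth it is not a measured absence. No fold change can be given for Socs3. Junb (ENSMUSG00000052837, chr8:84974484-84978718, minus strand), an AP-1 transcription factor and early Stat3 target, has no row of its own, and no value can be given for it. GENCODE vM21 gives it a protein-coding transcript of 1 exon and a non-coding transcript of 2 exons. The rows that lie in the span of Junb belong to Prdx2 on the opposite strand.

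The loss of Pcgf1 and its return were compared over the 7 measured genes by the count past 2-fold, set against all genes. For Pcgf1-/- against WT, 0 of 7 were past 2-fold, where 10.2% of the 11952 genes above 0 in both libraries and 2.21% of the 5875 genes at 5 FPKM or more in all 3 libraries were. For rescue against Pcgf1-/- the count was again 0 of 7, with 12.2% of 12024 genes above 0 and 3.1% of those at 5 FPKM or more past 2-fold. For rescue against WT it was 0 of 7, with 8.09% of 12338 genes above 0 and 1.53% of those at 5 FPKM or more. At the level of these genes, then, a count of 0 of 7 is near the background and is no result about the pathway. All comparisons share libraries: the knockout enters the first and the second, and a high or low knockout value enters both with opposite sign.

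Within the 2-fold limit the 7 genes were set against the median of the genes at 5 FPKM or more. Above it lay 5 of 7 for Pcgf1-/- against WT, 1 for rescue against Pcgf1-/- and 3 for rescue against WT. For Pcgf1-/- against WT, 4 were higher and 3 lower, with a median log2 ratio of 0.20 (range -0.20 to 0.42), beside a median of -0.06 over the genes at 5 FPKM or more. The signs of Pim3 and Il6st in this comparison depend on the processing: Pim3 turned to 0.02 after median-of-ratios scaling and Il6st to 0.01 on first exons alone. That of Stat3 depends on the internal first exon listed in WT. At the 5' first exon alone Stat3 was higher in Pcgf1-/- cells, at 21.8 FPKM against 18.8 in WT. For rescue against Pcgf1-/-, 6 were lower and only Il6st was higher, with a median of -0.33 (range -0.88 to 0.20) beside -0.05. All but Pim1 lay inside the middle 90% of genes at this level, for which the limits were -0.68 and 0.54, and 2.79% of these genes had a ratio lower than that of Pim1. For rescue against WT, 6 were lower and Il6st was at 0.00, with a median of -0.20 (range -0.56 to 0.00) beside -0.12, and all 7 lay inside the middle 90%. Here the sign of Lifr, -0.09, turned to 0.03 after median-of-ratios scaling and to 0.54 on the largest single event row.

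**Figure D2:**
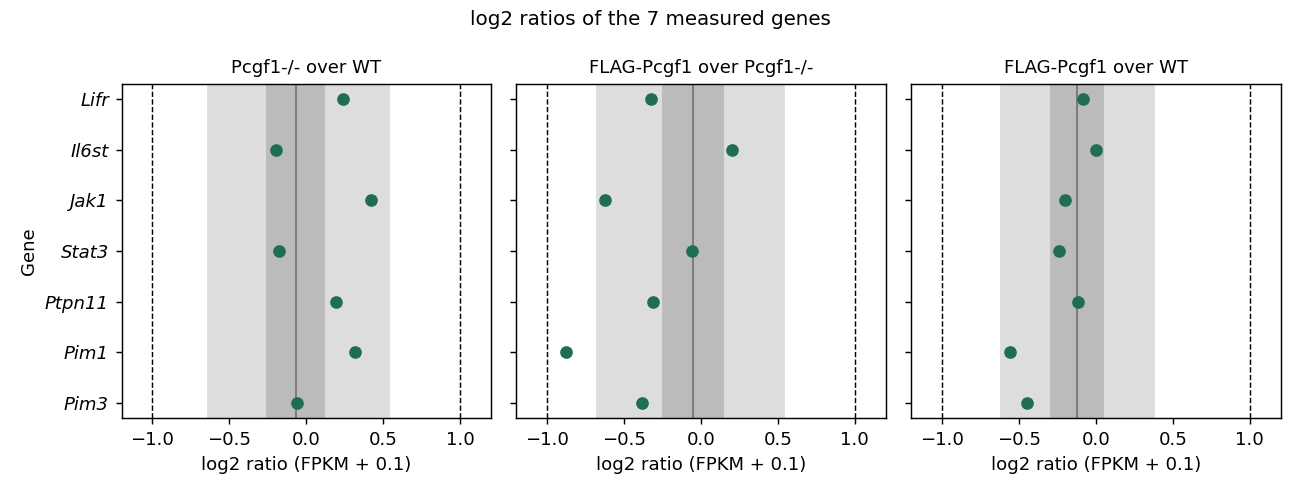
log2 ratios (FPKM + 0.1) of the 7 measured genes for Pcgf1-/- over WT, for rescue (FLAG-Pcgf1) over Pcgf1-/- and for rescue over WT. The light band is the middle 90% and the dark band the middle 50% of the 5875 genes at 5 FPKM or more, the grey line is their median and the dashed lines mark 2-fold. No point passes 2-fold, and only Pim1 in the middle panel, at -0.88, lies outside the light band.

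The files also give values for first exons, last exons and splicing events, and 31 of the 76 event rows of the 8 listed genes were above 0 in at least 1 library. The Ptpn11 exon shown above was the only splicing event among them at which both forms were above 0. The longer form was at 5.32 FPKM in WT, 8.17 in Pcgf1-/- and 5.62 in rescue cells, and the shorter form at 14.7, 14.8 and 12.9 FPKM. Between WT and the knockout the shorter form thus stayed at the same level while the longer form differed, and both forms were lower in rescue cells than in the knockout. The longer form made up 26.5% of the exon in WT, 35.5% in Pcgf1-/- and 30.4% in rescue cells. The difference between Pcgf1-/- and WT was 8.98 percentage points, where the median absolute difference over 276 such exon pairs was 5.85 points and 35.5% of the pairs differed by more.

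At the Stat3 exon shown above the longer form carried 24.7, 21.8 and 21.0 FPKM in WT, Pcgf1-/- and rescue cells, and the shorter form, Stat3 beta, was listed at 0 in all 3. The intron of Ptpn11 at chr5:121152554-121154430 was listed as spliced out at the full level of the gene and as retained at 0. In Il6st a 43-base exon (chr13:112491144-112491186) was skipped at the full level in every library. Jak1 skipped exons at chr4:101197776-101197980 and chr4:101257493-101257552 in the same way. These splicing choices were the same in the 3 libraries.

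The first exons of Lifr were not. The first exon at chr15:7129559-7129826 was at 4.64 FPKM in WT, 0 in Pcgf1-/- and 6.77 in rescue cells. WT had a further 2.56 FPKM at an unannotated internal first exon (chr15:7189903-7190193). The knockout value of 8.52 FPKM was listed at the last exon alone (chr15:7190546-7191743), which was at 6.77 FPKM in rescue cells and had no row in WT. Lifr is thus at similar levels in the 3 libraries by the larger of both sums and at 0 in 1 library by either sum alone, so its ratio rests on different ends of the gene in different libraries. Jak1 and Stat3 likewise have values at first exons only, since their listed last exons were at 0 throughout.

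**Figure D3:**
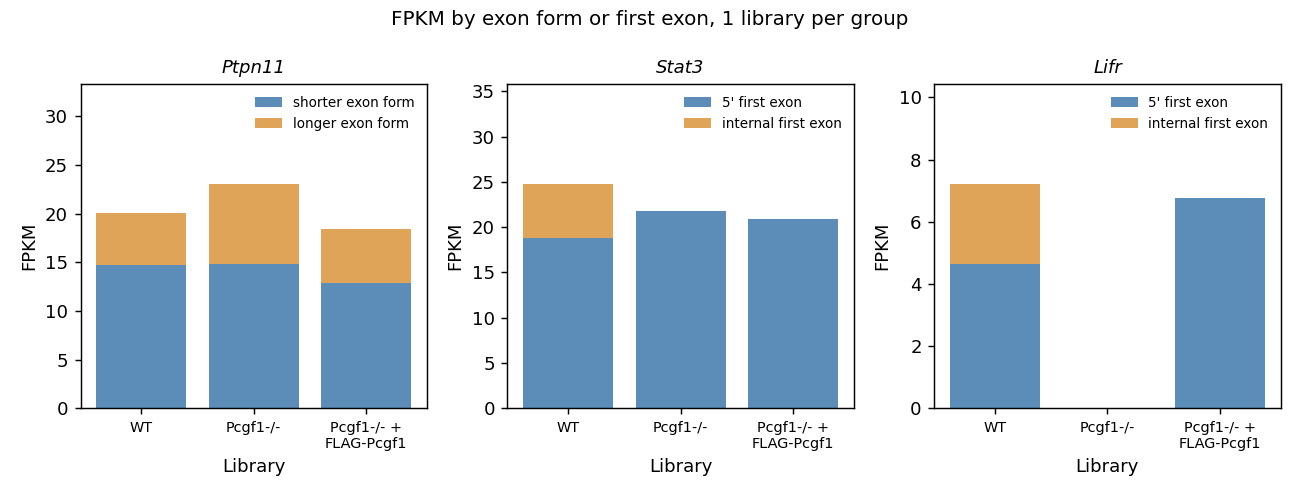
FPKM in each library, stacked by form: for Ptpn11 the shorter and the longer form of exon 11, and for Stat3 and Lifr the first exon at the 5' end of the gene and an internal first exon. The longer Ptpn11 form is at 8.17 FPKM in Pcgf1-/- against 5.32 in WT, internal first exons appear in WT only, and Lifr has no first exon above 0 in Pcgf1-/- cells.

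The wider pathway was read through 7 lists with 87 genes, of which 70 carried their own name in all 3 libraries, 6 of them at 0 throughout, and 17 did not. For Pcgf1-/- against WT, 7 of the 59 genes above 0 in both were more than 2-fold higher and 2 more than 2-fold lower, where 2.99% of all genes above 0 were higher and 7.26% lower. Of these pathway genes only Myc and Bcl3 stayed past 2-fold with a pseudocount of 1 FPKM, so the count rests largely on low values. The shares of all genes were taken at a pseudocount of 0.1 FPKM only. The median log2 ratio of the lists was 0.06, beside -0.10 for all genes above 0. For rescue against Pcgf1-/-, 2 of 60 were higher and 6 lower (8.88% and 3.31% of all genes), with a median of -0.29 beside 0.02. For rescue against WT, 4 of 61 were higher and 1 lower (5.11% and 2.97% of all genes), with a median of -0.19 beside -0.08.

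The 7 of 9 ligand genes with a name of their own in all 3 libraries were scarce. Ctf1 and Cntf are in no count. Ctf1 was at 3.42 FPKM in WT and 2.52 in rescue cells, and was joined with Fbxl19 and Orai3 in Pcgf1-/- cells. Cntf was joined with Zfp91 throughout. Lif itself was at 1.35 FPKM in WT, 2.03 in Pcgf1-/- and 1.27 in rescue cells, in cultures that also received LIF in the medium. Of the 3 ligand genes above 0 in both Pcgf1-/- and WT cells, Il11 was more than 2-fold higher and Clcf1 more than 2-fold lower, both below 1 FPKM. Among the other receptor chains Cntfr, the ciliary neurotrophic factor receptor, was at 3.09 FPKM in WT, 6.76 in Pcgf1-/- and 2.83 in rescue cells, with log2 ratios of 1.11 for Pcgf1-/- to WT and -1.23 for rescue to Pcgf1-/-. The first came to 0.92 with a pseudocount of 1 FPKM. Il6ra and Osmr also passed 2-fold in 1 comparison or more, at levels of 0.51 FPKM or less. Il11ra1, at 4.54 FPKM in Pcgf1-/- and 3.45 in rescue cells, was joined with Galt in WT and is in no count. Ctf1, Cntf, Il11ra1, Il11, Clcf1, Il6ra and Osmr are named here after their values were seen. The calls of Il11, Clcf1, Il6ra and Osmr ended with a pseudocount of 1 FPKM.

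The other kinases and Stats stayed within 2-fold in all 3 comparisons, in 5 of 5 genes above 0. Tyk2, a relative of Jak1, was at 7.28, 8.24 and 6.10 FPKM in WT, Pcgf1-/- and rescue cells. Stat6 was at 8.81, 5.79 and 5.27 FPKM, and Stat2, of the interferon response, at 5.95, 3.57 and 5.27 FPKM.

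Of the inhibitors, all 13 above 0 were within 2-fold for Pcgf1-/- against WT. Socs2, a cytokine-induced suppressor of the Socs3 family, was at 22.3 FPKM in WT, 35.9 in Pcgf1-/- and 16.1 in rescue cells. Its log2 ratio was 0.68 for Pcgf1-/- to WT and -1.15 for rescue to Pcgf1-/-, the only inhibitor past 2-fold. Ptpn2, a phosphatase that acts on Jak and Stat proteins, was at 39.7, 32.8 and 33.1 FPKM. The sumo ligases Pias4 (32.1, 29.3 and 24.1 FPKM) and Pias2 (31.1, 24.05 and 33.5 FPKM) lay within 2-fold as well.

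A further list held 22 ES cell genes chosen as candidates for a response to LIF. Whether each responds, and whether it does so through Stat3, was not tested here, so the list is no readout of Stat3. Of the 22, 14 were above 0 in both Pcgf1-/- and WT cells. Of these, Myc, Bcl3 and Tbx3 were more than 2-fold higher in Pcgf1-/- cells, Klf4 was more than 2-fold lower and 10 were within 2-fold, with a median log2 ratio of 0.25. With a pseudocount of 1 FPKM Tbx3 (0.98) and Klf4 (-0.73) came within 2-fold, and Myc and Bcl3 did not. Myc, the growth regulator, was at 30.3 FPKM in WT, 65.5 in Pcgf1-/- and 23.2 in rescue cells. Bcl3, a nuclear co-regulator of NF-kappaB, was at 8.39, 20.9 and 11.7 FPKM. Both were high in the knockout library and lower in the other libraries, with log2 ratios of Pcgf1-/- to WT of 1.11 for Myc and 1.31 for Bcl3.

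Klf4 and Tbx3, transcription factors that sustain naive pluripotency below LIF, were highest in the rescue library instead, as was the ES cell marker Nanog. Klf4 was at 2.62 FPKM in WT, 1.19 in Pcgf1-/- and 8.07 in rescue cells, with a log2 ratio of rescue to WT of 1.58. Tbx3 was at 0.23, 1.43 and 3.61 FPKM, with a log2 ratio of rescue to WT of 3.48. The list thus held genes with different patterns over the 3 libraries. Its most abundant members stayed within 2-fold in all 3 comparisons: Klf2 at 517, 590.2 and 357 FPKM, Mycn at 158, 88.3 and 128 FPKM, Mcl1, a survival protein, at 93.3, 77.1 and 81.8 FPKM, and Sgk1, a kinase, at 88.8, 121 and 108 FPKM. Of the 22 genes, 17 carried their own name in all 3 libraries, and the rest are in no count. Tfcp2l1, joined in name with Gm23497, was at 9.65 FPKM in WT, 19.8 in Pcgf1-/- and 17.3 in rescue cells. Pim2 was at 9.54 FPKM in Pcgf1-/- and 37.4 in rescue cells, and its locus joined with Otud5 was at 35.9 in WT. Nfkbiz was joined with Nxpe3 in WT alone, and Cebpd and Ier2 had no value. These genes are named after their values were seen.

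**Figure D4:**
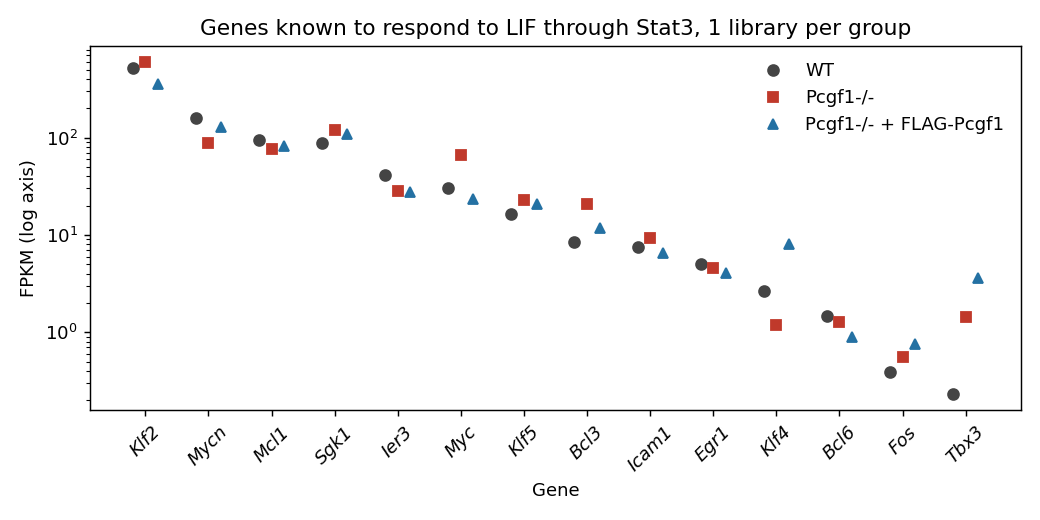
FPKM (log axis) of the 14 genes above 0 in all 3 libraries from the list chosen as candidates for a response to LIF. Each library is 1 point, with circles for WT, squares for Pcgf1-/- and triangles for Pcgf1-/- with FLAG-Pcgf1. Whether each gene responds through Stat3 was not tested. Myc and Bcl3 are highest in Pcgf1-/- cells, at 65.5 and 20.9 FPKM, and Klf4 and Tbx3 are highest in rescue cells, at 8.07 and 3.61 FPKM.

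The ERK and PI3K branch, which leads from the receptor through Ptpn11, had 17 of 21 genes above 0 and none past 2-fold for Pcgf1-/- against WT, with a median log2 ratio of 0.04. The adaptors Gab1 (77.6, 81.6 and 62.5 FPKM in WT, Pcgf1-/- and rescue cells) and Grb2 (57.7, 55.1 and 44.0 FPKM) were its most abundant genes. The kinases Mapk3 (51.6, 37.9 and 36.5 FPKM) and Map2k2 (49.7, 51.0 and 49.7 FPKM) followed. Sos2, a Ras exchange factor, was the only gene of the branch past 2-fold in a comparison, at 3.59, 5.95 and 2.05 FPKM, with a log2 ratio of rescue to Pcgf1-/- of -1.49.

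Of the AP-1 relatives of Junb, Jun and Jund were not listed. Fosl1 was at 1.06 FPKM in WT, 2.66 in Pcgf1-/- and 0.95 in rescue cells, with log2 ratios of 1.25 for Pcgf1-/- to WT and -1.39 for rescue to Pcgf1-/-, which a pseudocount of 1 FPKM brought to 0.83 and -0.91. Fosl2 was at 1.42, 2.25 and 1.07 FPKM, and rescue to Pcgf1-/- lay just past the 2-fold limit. Batf was at 0.29 FPKM in WT, listed at 0 in Pcgf1-/- and at 1.73 FPKM in rescue cells. Atf3 was at 2.14, 3.16 and 2.54 FPKM, within 2-fold in all 3 comparisons.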

How the data were processed

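RNA from 3 mouse ES cell cultures, 1 library per group, was sequenced. The authors aligned the reads, assembled transcripts and normalized them to FPKM before the files were deposited. Each file lists transcript events with their FPKM: first exons (TSS), last exons (TTS) and splicing events. The submitters' processing notes name TopHat2 2.0.12, Cufflinks 2.2.1, HTSeq 0.6.0 and build mm10. The program that listed the events is not given in the sources used here. No read counts are in the tables, so no count test, interval or floor was used.

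A gene's value was the larger of its summed TSS and summed TTS FPKM. Names joined by commas, unnamed loci and names turned into dates were left out of counts and ratios, as were genes not named in all 3 libraries. Where a value is given for a joined name, it is that of the whole locus. Ratios are log2 of FPKM + 0.1, which understates changes of low genes, and called means past 2-fold. All 9 pathway genes were named whatever their values. From each list, genes past 2-fold with at least 1 FPKM in 1 of the 2 libraries were named, with up to 4 of the highest in WT. Members and lists were chosen with earlier results of these data known. Likeness to Socs3 could not be ranked, since it was listed at 0. Sequences came from GENCODE vM21 and RefSeq tables of the same build. Scripts (Python, pandas, matplotlib) were tested on simulated data. Alternatives were other pseudocounts (0.01 and 1), TSS or TTS rows alone, median-of-ratios scaling, a filter at 1 FPKM and, added after seeing the data, the largest single event row and a background of genes at 5 FPKM or more.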

Additional observations from a re-analysis of the deposited data

How the results depend on the processing

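The count of pathway genes past 2-fold was 0 in all 3 comparisons under every alternative run. The 137 alternative log2 ratios of the 7 measured genes all stayed within 2-fold. Those of Pim1 for rescue to Pcgf1-/- ranged from -0.88 to -0.84, and those of Jak1 for Pcgf1-/- to WT from 0.39 to 0.51. Lifr moved most, to 0.86 for Pcgf1-/- to WT when the largest single event row was taken, an alternative chosen after seeing the data. On TSS rows alone no ratio against Pcgf1-/- could be given for Lifr, which was listed at 0 there. On TTS rows alone none could be given for Lifr against WT, nor for Jak1 or Stat3. Median-of-ratios scaling moved the log2 ratio of all genes by 0.12 for rescue to WT. Among the 10 other pathway genes named for passing 2-fold at 1 FPKM or more, 9 alternative ratios fell back within 2-fold and 181 kept their side of it. With a pseudocount of 1 these were, for Pcgf1-/- to WT, Cntfr (0.92), Fosl1 (0.83), Klf4 (-0.73) and Tbx3 (0.98), and, for rescue to Pcgf1-/-, Fosl1 (-0.91), Fosl2 (-0.65) and Tbx3 (0.92). Sos2 was at -0.89 on TSS rows alone and Fosl2 at -0.97 after scaling. Of the alternative ratios of Il11, Clcf1, Il6ra and Osmr, all under 1 FPKM, 10 changed side and 60 did not. No paired analysis was possible because each group was 1 library, and no replicate could be left out. Depth is unknown, so the precision of low values, Tbx3 and Batf among them, cannot be stated.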
